A study of Mus musculus with 30 samples.

Results

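The transcriptomes of 4T1-tdTomato cells from lung were compared between BALB/c and NSG hosts at day 7 after injection. The 4T1 line comes from a mammary carcinoma of a BALB/c mouse, and tdTomato is a red fluorescent protein that marks the cells. Both groups shared line, day, organ, route and dose: 500000 cells were injected by the tail vein of female mice, and digested lungs were sorted for single live cells (negative for DAPI and CD45, positive for tdTomato). The 5 libraries of BALB/c DTC (title number 25) and the 5 of NSG DTC (title numbers 34 and 35) were taken by their labels from 30 libraries in 6 groups, and the series title names a glucocorticoid and Fas axis in immune evasion during metastatic seeding. The labels do not spell out DTC. They do not say how many animals gave the libraries or whether cells were pooled, so p-values measure only the spread between these libraries, which may be technical. Title number and host changed together, so an effect of whatever the number marks cannot be told apart from host.

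BALB/c mice have a full immune system and match the cells in strain. NSG mice carry the scid mutation and lack the common gamma chain of interleukin receptors on a NOD background. They lack T, B and NK cells, but keep neutrophils and functionally impaired macrophages and dendritic cells. Interferon gamma, made mainly by T and NK cells, acts through the kinases JAK1 and JAK2 and, by way of GAS elements, induces the transcription factor IRF1. IRF1 binds interferon-stimulated response elements (ISRE) and takes part in inducing CIITA, the master regulator of MHC class II genes. In epithelial tumour cells, the same signal raises peptide processing and loading for MHC class I.

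Total counts ran from 35162230 to 60327229 in BALB/c DTC and from 34632933 to 57813345 in NSG DTC, and 19563 to 21575 and 21391 to 22187 genes had a count. Levels are given as CPM (counts relative to library size, scaled by TMM) for replicates 1 to 5 in order, and differences as log2 fold changes of BALB/c DTC over NSG DTC ± SE of the edgeR fit (n = 5 and 5). Of 17774 genes tested, 3048 were called higher (17.1%) and 3851 lower (21.7%) in BALB/c DTC at an edgeR adjusted p under 0.05, and the median log2 fold change over all genes was -0.01. In 12.3% of all genes the 5 BALB/c libraries all lay above the 5 NSG libraries, and in 19.3% they all lay below. Correlations of log2 CPM ran from 0.9369 to 0.9752 among BALB/c DTC, from 0.9773 to 0.9867 among NSG DTC, and from 0.9098 to 0.9624 between the hosts.

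Lung markers set some libraries apart. Summed lung epithelium markers stood at 3651, 1591, 175, 310 and 158 CPM in BALB/c DTC, against 71.0 to 93.5 CPM in NSG DTC, and 14 of the 15 markers tested were called higher. BALB/c replicates 1 and 2 had the highest sums, and results were also computed without them and with the lung markers as a covariate. Endothelial markers summed to 612, 231, 48.4, 58.3 and 43.6 CPM in BALB/c DTC and 77.7 to 104 CPM in NSG DTC. BALB/c replicates 3, 4 and 5 thus lay below every NSG library. Of 17 tested, 2 were called higher and none lower (median 1.17). Without BALB/c replicates 1 and 2 it was 1 higher and 1 lower (median -1.07). With the covariate, which includes these markers, it was 1 and 8 (median -1.25). Markers of macrophages, monocytes and dendritic cells summed to 31.1 to 713 CPM in BALB/c DTC and 39.8 to 109 CPM in NSG DTC (2 higher and 1 lower of 14). Neutrophil markers summed to 22.2 to 80.6 CPM in BALB/c DTC, above the 4.18 to 15.0 CPM of NSG DTC, with 6 of 8 called higher and Elane at 0 in all 10 libraries. Red cell markers summed to 4.27 to 11.1 CPM in BALB/c DTC and 17.7 to 65.9 CPM in NSG DTC (4 of 6 called lower).

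T cell markers were low in both hosts, at 9.73 to 14.7 CPM in sum in BALB/c DTC and 7.39 to 11.4 CPM in NSG DTC, with 10 of 13 markers under 1 CPM in every library. NK markers summed to 1.09 to 2.62 CPM in BALB/c DTC and 1.53 to 2.62 CPM in NSG DTC, with 9 of 10 under 1 CPM throughout and Klra8 at 0. The pan-leukocyte gene Ptprc, which encodes the CD45 used in the sort, had 3.90, 0.625, 0.973, 0.974 and 0.636 CPM in BALB/c DTC and 1.68, 1.29, 0.743, 1.69 and 0.454 CPM in NSG DTC. Markers of the tumour cells themselves summed to 6604 to 8758 CPM in BALB/c DTC and 3891 to 6720 CPM in NSG DTC. Of these 8 markers 6 were called higher and none lower (median 0.55). With offsets for GC content and length none was called higher and 2 were lower (median -0.05). Since these are bulk samples, fewer cells of a type and less RNA per cell cannot be told apart.

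**Figure D1:**
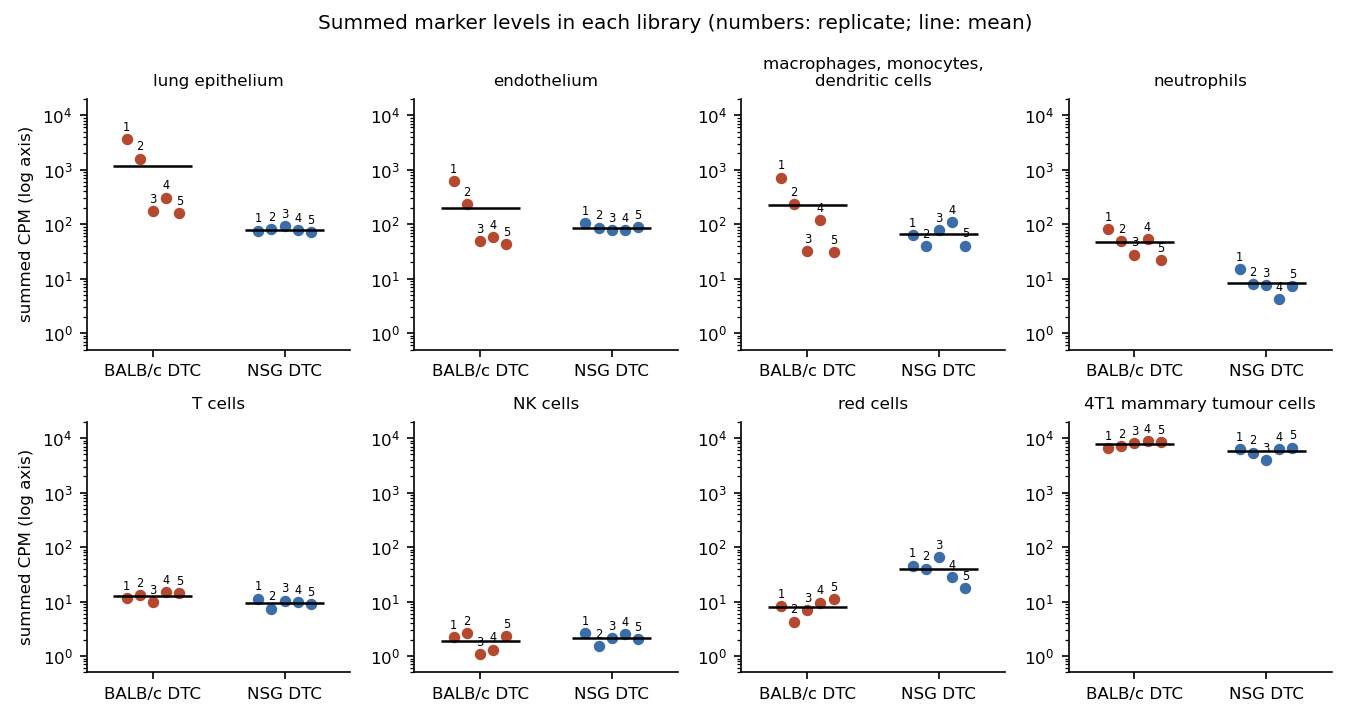
Summed CPM of 8 marker lists (log axis) in each of the 5 BALB/c DTC (left, red) and 5 NSG DTC libraries (right, blue), numbered by replicate, with a line at the mean. Lung epithelium markers reach 3651 and 1591 CPM in BALB/c replicates 1 and 2, while T and NK cell sums lie in the same low range in both hosts.

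MHC class II genes had the highest median difference of the 27 programme lists. All 9 of the class II genes tested (11 were listed) were called higher in BALB/c DTC, with a median log2 fold change of 7.52 (7.23 with offsets for GC content and length, 7.42 without BALB/c replicates 1 and 2). Cd74, the invariant chain that guides class II assembly (ENSMUSG00000024610, GRCm38 chromosome 18 from 60803848 to 60812652), had 956, 418, 198, 978 and 593 CPM in BALB/c DTC, against 7.92, 12.5, 13.1, 11.4 and 8.92 CPM in NSG DTC. Every BALB/c library lay above every NSG library, with replicate 3 the lowest (5.87 ± 0.38, edgeR adjusted p = 2.6e-11, and 5.28 with the offsets). H2-Eb1, a class II beta chain, had 500, 180, 78.1, 602 and 290 CPM in BALB/c DTC, against 1.62, 0.594, 1.17, 0.991 and 0.568 CPM in NSG DTC (8.36 ± 0.55, adjusted p = 3.3e-11). The alpha and beta chains of I-A, H2-Aa (7.52 ± 0.66) and H2-Ab1 (8.20 ± 0.66, and 7.59 with the offsets), differed by a similar amount.

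Peptide loading onto class II molecules depends on the H2-DM pair. H2-DMa had 136, 68.3, 29.7, 169 and 78.8 CPM in BALB/c DTC and 9.45, 7.16, 8.00, 12.3 and 9.03 CPM in NSG DTC (3.39 ± 0.32). Its partner H2-DMb1 had 93.5, 36.3, 14.7, 98.4 and 47.4 CPM in BALB/c DTC and at most 0.259 CPM in any NSG library (9.18 ± 0.62). The regulator gene Ciita had 40.6, 25.9, 9.85, 59.8 and 37.7 CPM in BALB/c DTC, against 1.02, 0.676, 1.00, 0.901 and 1.33 CPM in NSG DTC (5.15 ± 0.46, edgeR adjusted p = 6.1e-09). In each of these 5 genes with values by library, BALB/c replicate 3 was the lowest and replicate 4 the highest. B and plasma cells, macrophages and dendritic cells also express class II genes. Markers of B and plasma cells summed to 4.49, 2.05, 0.544, 0.946 and 0.636 CPM in BALB/c DTC, all above the 0.142 to 0.380 CPM of NSG DTC, with 2 of 4 tested called higher (none without BALB/c replicates 1 and 2) and 8 of 9 under 1 CPM in every library. The part of these markers, and of the macrophage and dendritic cell markers, in the class II difference was not tested.

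The smallest adjusted p of all genes belonged to H2-Ea-ps, a class II alpha chain that the reference annotation lists as a pseudogene (edgeR adjusted p = 1.4e-12). It had 264, 78.7, 31.9, 237 and 136 CPM in BALB/c DTC, 31017 counts in all. In NSG DTC it had 0.0178, 0, 0, 0.018 and 0.0284 CPM, only 3 counts over the 5 libraries.

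**Figure D2:**
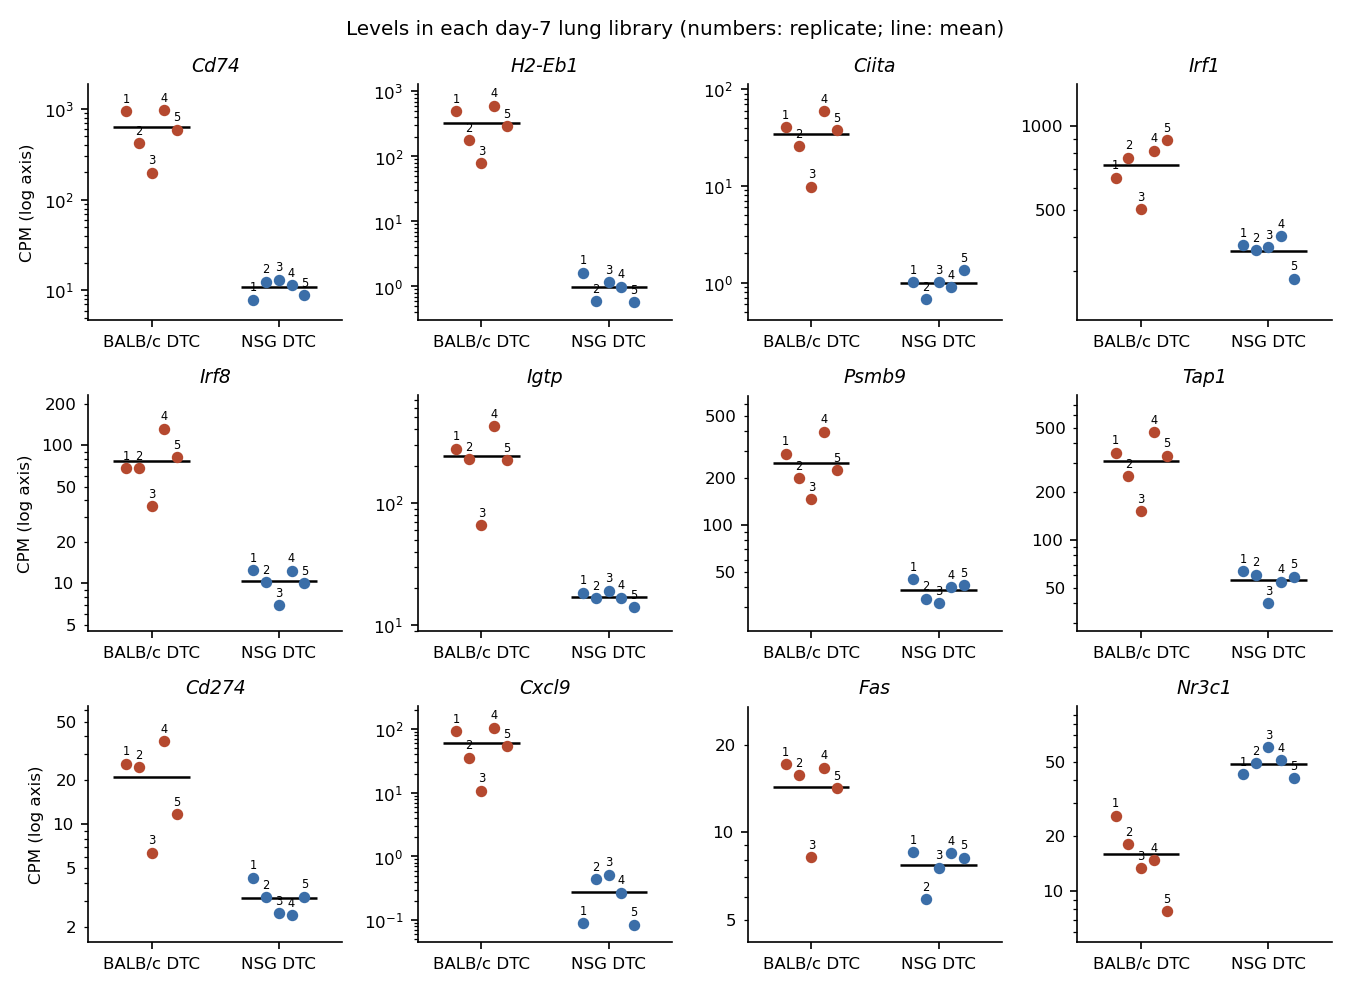
CPM (log axis) of 12 genes in each BALB/c DTC (left, red) and NSG DTC library (right, blue), numbered by replicate, with a line at the mean. The groups do not overlap for 11 of these genes, which were picked after their values were seen. Of all genes, 12.3% had BALB/c DTC wholly above NSG DTC and 19.3% wholly below. The exception is Fas, where BALB/c replicate 3 (8.19 CPM) lies within the NSG range of 5.87 to 8.54 CPM. Nr3c1 is the gene that is lower in BALB/c DTC.

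The interferon gamma list rose as a group, with 31 of 38 members called higher and 2 lower (median 2.35 and, with offsets, 2.54). Its median GC content was 46.6%, against 49.7% for all genes tested. The receptor gene Ifngr1 and the kinase genes Jak1 and Jak2, the last 2 picked out after their values were seen, were not called higher. Ifngr1, the ligand-binding receptor chain, had 27.9 to 43.5 CPM in BALB/c DTC and 26.7 to 40.6 CPM in NSG DTC (0.22 ± 0.13, edgeR adjusted p = 0.20, but called at 0.34 without NSG replicate 3). Jak1 had 89.9, 83.5, 76.5, 68.7 and 52.4 CPM in BALB/c DTC and 117 to 131 CPM in NSG DTC (-0.72 ± 0.12). Jak2 had 169, 95.0, 120, 140 and 27.4 CPM in BALB/c DTC and 337 to 453 CPM in NSG DTC (-1.78 ± 0.36), and both kinase genes were still called lower with the offsets (-0.54 and -1.47).

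Transcription factors downstream were higher. Irf1, also picked out after its values were seen, had 652, 769, 503, 815 and 887 CPM in BALB/c DTC and 373, 357, 368, 402 and 282 CPM in NSG DTC (1.02 ± 0.19, edgeR adjusted p = 8.3e-05). Irf8, an interferon-induced factor best known from myeloid cells, had 68.5, 68.1, 36.3, 132 and 82.1 CPM in BALB/c DTC and 6.91 to 12.5 CPM in NSG DTC (2.90 ± 0.29). For both factors the 2 groups did not overlap.

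Effector genes of the pathway were higher as well. Igtp (ENSMUSG00000078853, chromosome 11 from 58199556 to 58207591), an immunity-related GTPase, had 278, 228, 65.5, 425 and 223 CPM in BALB/c DTC, against 18.4, 16.6, 19.1, 16.8 and 14.1 CPM in NSG DTC (3.84 ± 0.30, edgeR adjusted p = 9.3e-10). Other GTPases of cell-autonomous defence, Tgtp1 (3.98 ± 0.38), Gbp4 (4.76 ± 0.58, and 5.38 with the offsets) and Iigp1 (3.04 ± 0.50, and 3.77 with the offsets) were also higher, although near-identical family members can share reads. Iigp1 reached 57.0, 22.0, 8.10, 44.8 and 6.45 CPM in BALB/c DTC, so replicates 3 and 5 stood close to the 2.68 to 4.19 CPM of NSG DTC. The tryptophan-degrading enzyme gene Ido1 had 14.4, 11.9, 4.84, 28.2 and 12.8 CPM in BALB/c DTC and 0.142 to 0.892 CPM in NSG DTC (4.68 ± 0.58). Nos2, the inducible nitric oxide synthase, had 111, 68.7, 22.9, 213 and 178 CPM in BALB/c DTC and 11.3 to 17.8 CPM in NSG DTC (3.02 ± 0.50).

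The cytokine itself was close to absent. Ifng had 0.0255, 0.125, 0, 0 and 0 CPM in BALB/c DTC and 0 CPM in all 5 NSG DTC libraries, which is 6 counts against none. Ifnb1 had 14 counts in BALB/c DTC and 2 in NSG DTC.

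To show what lies upstream of these genes, the 250 bases before the transcription start were read for Igtp and H2-Eb1 from the RefSeq promoter table (GRCm38.p6, plus strand, chr11:58199306-58199555 and chr17:34305617-34305866). They stand for the interferon and the class II genes, and the letters are those of the reference genome, not of these cells. In Igtp the capitals mark a GAS match (TTCNNNGAA) 45 to 37 bases and an ISRE match (GAAA, any 2 bases, GAAA) 34 to 25 bases before the start. In H2-Eb1 they mark a Y box (TGATTGG) 61 to 55 bases before the start and a run of 13 bases 89 to 77 bases before it that H2-DMb1 also holds.
Igtp: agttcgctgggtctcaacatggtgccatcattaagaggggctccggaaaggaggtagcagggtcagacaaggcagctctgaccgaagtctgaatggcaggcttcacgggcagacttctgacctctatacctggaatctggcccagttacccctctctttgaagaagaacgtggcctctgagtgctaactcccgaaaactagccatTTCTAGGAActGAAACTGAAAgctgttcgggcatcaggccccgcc
H2-Eb1: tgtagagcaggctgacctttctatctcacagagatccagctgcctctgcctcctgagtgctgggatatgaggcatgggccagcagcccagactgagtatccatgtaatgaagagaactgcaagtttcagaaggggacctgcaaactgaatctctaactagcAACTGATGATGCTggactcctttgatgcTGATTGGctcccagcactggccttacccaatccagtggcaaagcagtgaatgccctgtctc

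Across the table, with both strands searched over 250 bases before the start, the ISRE match was found in 12 of the 19 interferon gamma genes that were called higher and listed there, in none of 6 class II genes, in 3 of 17 class I genes and in 3.46% of all 27025 genes. A GAS match was found in 8 of the 19, in 1 of the 6 class II genes, in 2 of the 17 class I genes and in 8.13% of all genes. The Y box was found in 5 of the 6 class II genes called higher, in 8 of 17 such class I genes, in 5 of the 19 interferon gamma genes and in 8.38% of all genes. H2-DMb1 has its Y box 63 to 57 and the shared run 92 to 80 bases before the start, and H2-Eb1 and H2-DMb1 are the only 2 of the 27025 with that run, which was picked out after the sequences were seen. Psmb8 has a GAS match 97 to 89 and Psmb9 a Y box 10 to 4 bases before the start. A match describes the letters in this window, not a bound factor.

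MHC class I antigen presentation rose almost as widely, with 20 of 23 members called higher and 1 lower (median 1.17 and, with offsets, 0.80 with 18 higher and none lower). The immunoproteasome subunits, which replace constitutive ones and favour peptides that fit class I, were all higher. Psmb9 had 287, 200, 147, 398 and 225 CPM in BALB/c DTC, against 44.9, 33.8, 31.5, 40.2 and 41.4 CPM in NSG DTC (2.71 ± 0.18, edgeR adjusted p = 2.3e-11). Psmb8 (1.90 ± 0.14), Psmb10 (1.78 ± 0.17) and the proteasome activator Psme2 (1.05 ± 0.10) also had groups without overlap. Tap1, a chain of the peptide transporter, had 350, 250, 150, 470 and 336 CPM in BALB/c DTC, against 63.8, 60.6, 40.4, 54.8 and 58.9 CPM in NSG DTC (2.48 ± 0.21). Psmb9 and Tap1 lie head to head on chromosome 17 with overlapping annotated ends, and without a stated strand setting reads from the overlap cannot be told apart.

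The non-classical class I gene H2-Q7 had 243, 161, 157, 280 and 215 CPM in BALB/c DTC and 31.7 to 67.1 CPM in NSG DTC (1.95 ± 0.16), with the limit that H2-Q paralogs share reads. Not all members of the pathway were called. Erap1, which trims peptides in the endoplasmic reticulum, had 33.8 to 108 CPM in BALB/c DTC and 81.3 to 125 CPM in NSG DTC (-0.44 ± 0.21, edgeR adjusted p = 0.10, and 0.32 with the offsets, but called lower without BALB/c replicate 1 at -0.66 and with the covariate at -0.72). Pdia3, an oxidoreductase of the loading complex, had 616 to 851 CPM in BALB/c DTC and 774 to 976 CPM in NSG DTC (-0.17 ± 0.09, and called at -0.25 with the covariate).

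Type I interferon response genes moved less. Of 38 members 20 were called higher and 3 lower (median 0.83 and, with offsets, 0.74). Bst2, which tethers budding virions to the cell, had 385, 208, 186, 429 and 320 CPM in BALB/c DTC, against 84.7, 91.0, 48.4, 84.2 and 74.2 CPM in NSG DTC (2.00 ± 0.20, edgeR adjusted p = 1.8e-08). The ubiquitin-like modifier gene Isg15 had 66.6, 40.4, 25.4, 67.2 and 40.3 CPM in BALB/c DTC, close to the 24.7 CPM of the highest NSG library in replicate 3 (1.48 ± 0.22). Zbp1, a sensor of Z-form nucleic acid, had 81.0, 54.3, 22.2, 113 and 57.2 CPM in BALB/c DTC and 13.2 to 23.0 CPM in NSG DTC, so the groups overlapped (1.99 ± 0.26).

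Genes that face cytotoxic cells were mixed. In the list of checkpoint and cytotoxic-cell ligands 8 of 22 were called higher and 5 lower (median 0.36), against 17.1% and 21.7% of all genes. Cd274, which encodes PD-L1, had 25.9, 24.4, 6.41, 36.9 and 11.8 CPM in BALB/c DTC, against 4.33, 3.18, 2.49, 2.40 and 3.21 CPM in NSG DTC (2.75 ± 0.33, edgeR adjusted p = 3.3e-07). Serpina3g, an interferon-inducible inhibitor of cathepsin B, had 65.6, 41.1, 10.7, 149 and 83.1 CPM in BALB/c DTC and 0.570 to 1.48 CPM in NSG DTC (6.38 ± 0.63). Nt5e, the adenosine-producing ectoenzyme CD73, went the other way, with 253, 271, 246, 223 and 159 CPM in BALB/c DTC and 583 to 829 CPM in NSG DTC (-1.60 ± 0.15).

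In the death receptor pathway 10 of 22 genes were called higher and 5 lower (median 0.32 and, with offsets, 0.00). Of all genes 17.1% were called higher and 21.7% lower. Fas, the receptor for Fas ligand (ENSMUSG00000024778, chromosome 19 from 34290666 to 34327772), had 17.1, 15.7, 8.19, 16.7 and 14.1 CPM in BALB/c DTC, against 8.54, 5.87, 7.55, 8.47 and 8.18 CPM in NSG DTC. It rose by 0.90 ± 0.22 (edgeR adjusted p = 0.0017), a 1.86-fold difference, and 4 of the 5 BALB/c libraries lay above all NSG libraries while replicate 3 did not. Its ligand gene Fasl had 1 count in BALB/c DTC and 2 in NSG DTC. Tnfsf10, the TRAIL ligand, had 35.1, 16.8, 6.41, 31.4 and 11.3 CPM in BALB/c DTC and 4.72 to 7.36 CPM in NSG DTC (1.85 ± 0.35).

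Genes of 2 inhibitors of death signalling were lower. Cflar, which encodes the caspase-8 inhibitor c-FLIP, had 17.5 to 48.5 CPM in BALB/c DTC and 59.7 to 74.2 CPM in NSG DTC (-1.01 ± 0.18), but lost the call with the offsets (-0.26). Xiap, a direct inhibitor of caspases, had 39.6, 16.7, 21.7, 21.4 and 5.43 CPM in BALB/c DTC and 77.5 to 122 CPM in NSG DTC (-2.06 ± 0.31, and -0.91 with the offsets). The TNF receptor gene Tnfrsf1a was called higher (0.59 ± 0.10), but stood at -0.01 with the offsets.

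Glucocorticoids act through the receptor encoded by Nr3c1, a ligand-activated transcription factor whose known targets include Fkbp5, Tsc22d3 and Per1. Nr3c1 was lower, with 25.6, 17.9, 13.3, 14.7 and 7.80 CPM in BALB/c DTC, against 43.1, 49.4, 60.1, 51.2 and 41.0 CPM in NSG DTC (-1.63 ± 0.22, edgeR adjusted p = 1.1e-06, and -0.91 with the offsets). The groups did not overlap. Fkbp5, a co-chaperone of the receptor, had 132 to 189 CPM in BALB/c DTC and 113 to 161 CPM in NSG DTC and was not called (0.21 ± 0.12, edgeR adjusted p = 0.18), while with the covariate it was called higher at 0.36. Tsc22d3, which encodes GILZ, had 85.8, 84.7, 88.2, 81.3 and 163 CPM in BALB/c DTC and 89.2 to 125 CPM in NSG DTC and was not called either (-0.08 ± 0.21, edgeR adjusted p = 0.81). Per1, also a clock gene, had 156, 147, 174, 148 and 192 CPM in BALB/c DTC and 86.6 to 131 CPM in NSG DTC (0.66 ± 0.22, edgeR adjusted p = 0.019), and with the offsets it stood at 0.10 and was not called, nor was it without BALB/c replicate 5 (0.57) or NSG replicate 1 (0.62).

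Over the glucocorticoid list 7 of 33 members were called higher and 5 lower (median 0.21), against 17.1% and 21.7% of all genes, and with the offsets 3 were higher and 7 lower (median -0.02). Members called higher included Fkbp4, a co-chaperone that aids nuclear transport of the receptor (1.23 ± 0.12), the transglutaminase gene Tgm2 (1.36 ± 0.17) and Lcn2, a siderophore-binding acute phase protein (1.98 ± 0.25). Tiparp, a mono-ADP-ribosyltransferase, was lower (-1.70 ± 0.29, and -1.11 with the offsets). The phosphatase gene Dusp1 had 567 to 1128 CPM in BALB/c DTC and 732 to 1084 CPM in NSG DTC (-0.35 ± 0.29, not called, but called at -0.83 with the offsets).

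Ligands of CXCR3, which draw T and NK cells, were higher. Cxcl9 had 91.7, 35.7, 10.8, 106 and 54.2 CPM in BALB/c DTC, against 0.0892, 0.445, 0.518, 0.270 and 0.0852 CPM in NSG DTC (7.65 ± 0.69, edgeR adjusted p = 7.9e-09). Cxcl11 (5.35 ± 0.43) and Cxcl10 (2.48 ± 0.37) followed, and for Cxcl10 the NSG libraries already held 12.6 to 20.0 CPM. Cxcl16 (1.39 ± 0.17) and Ccl5 (2.51 ± 0.55) were also higher, and over all chemokines 7 of 25 were called higher and 1 lower (median 0.63). Among cytokines 4 of 22 were higher and 2 lower (median 0.16). The shares of all genes, to set both lists against, were 17.1% higher and 21.7% lower. Tnf had 50.6, 61.2, 73.8, 81.3 and 116 CPM in BALB/c DTC and 26.9 to 37.7 CPM in NSG DTC (1.33 ± 0.32). Il1b had 26.0, 8.47, 1.57, 5.87 and 3.27 CPM in BALB/c DTC and 0.625 to 1.97 CPM in NSG DTC (2.55 ± 0.71), its highest value being in the library with the highest lung marker sum, and without BALB/c replicates 1 and 2 it was not called (1.21). Il18 (-0.95 ± 0.18) and Tslp (-0.79 ± 0.20) were lower, but Tslp was not called with the offsets (-0.13).

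NF-kB genes rose in part, with 18 of 31 called higher and 2 lower (median 0.67, and 14 higher and 3 lower with offsets). Nfkb2, a subunit of the non-canonical arm, had 386, 347, 350, 474 and 587 CPM in BALB/c DTC and 122 to 240 CPM in NSG DTC (1.12 ± 0.16, and 0.50 with the offsets). Its partner Relb (0.93 ± 0.15) and the adhesion molecule gene Icam1 (2.11 ± 0.25) were also higher. Nfkbia, the canonical feedback inhibitor, had 414 to 710 CPM in BALB/c DTC and 325 to 395 CPM in NSG DTC, without a call (0.48 ± 0.21, edgeR adjusted p = 0.073, but called by DESeq2 at 0.51). Acute phase and complement genes included 13 of 23 called higher and 2 lower (median 1.70). C3, the central complement component, had 710, 724, 549, 1669 and 1189 CPM in BALB/c DTC and 148 to 243 CPM in NSG DTC (2.30 ± 0.32), and the proteases of the C1 complex followed with C1s1 (4.07 ± 0.42) and C1ra (2.48 ± 0.25).

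By the rule for named genes, 10 of the 12 largest rises belonged to the interferon, MHC class II or complement genes already described, and the others were Nos2 and Wnt6. Wnt6, a secreted Wnt ligand, had 67.5, 42.5, 68.8, 85.9 and 63.0 CPM in BALB/c DTC, against 5.55, 6.65, 3.51, 8.94 and 5.31 CPM in NSG DTC (3.45 ± 0.52, and 2.76 with the offsets).

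The largest falls were of another kind. The 12 named by the rule ran from -3.24 to -2.93, had a median GC content of 39.7% and a median exonic length of 14234 bases (all genes 49.7% and 3662 bases), and all 12 were still called with the offsets, at -2.66 to -1.40. Tmprss11e, a membrane-bound serine protease, had 34.6, 20.6, 25.5, 19.9 and 7.31 CPM in BALB/c DTC, against 215, 177, 243, 176 and 210 CPM in NSG DTC (-3.24 ± 0.27, edgeR adjusted p = 2.1e-09). Cenpf, a large kinetochore protein, had 23.1, 8.64, 15.2, 12.6 and 2.89 CPM in BALB/c DTC and 100 to 127 CPM in NSG DTC (-3.21 ± 0.33). The chromatin remodeller gene Atrx, the nucleoporin gene Ranbp2 and the myosin gene Myo9a were likewise lower (-3.15 ± 0.41, -3.05 ± 0.41 and -3.08 ± 0.37). BALB/c replicate 5 was the lowest library for each of these 5. The fall with the smallest adjusted p was the ubiquitin ligase gene Rnf152, with 0.225 to 0.790 CPM in BALB/c DTC and 5.24 to 8.63 CPM in NSG DTC (-3.85 ± 0.32, and -3.12 with the offsets).

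GC content and length went with the host difference across all genes. Genes were put in 10 equal bins. In the bin with the lowest GC content (up to 41.3%) the median log2 fold change was -1.06, and 51.1% of genes were called lower and 2.37% higher. In the bin with the highest (from 57.8%) it was 0.49, with 1.24% lower and 41.4% higher. Of the bin of the longest genes 56.4% were called lower and 3.78% higher. Within single libraries, how far each gene stood from its mean over the libraries was compared with its GC content. The rank correlation across genes ran from 0.0591 to 0.537 in BALB/c DTC and from -0.617 to -0.255 in NSG DTC, as a description in which genes are not independent. Offsets that level these trends left 1756 genes called higher and 3603 lower, of which 1051 and 2427 had the same call without them, while 157 calls reversed. With them the median over all genes was -0.13, the level to read every value with offsets against, in place of -0.01. The part of GC content and length in each result was not tested beyond these offsets.

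**Figure D3:**
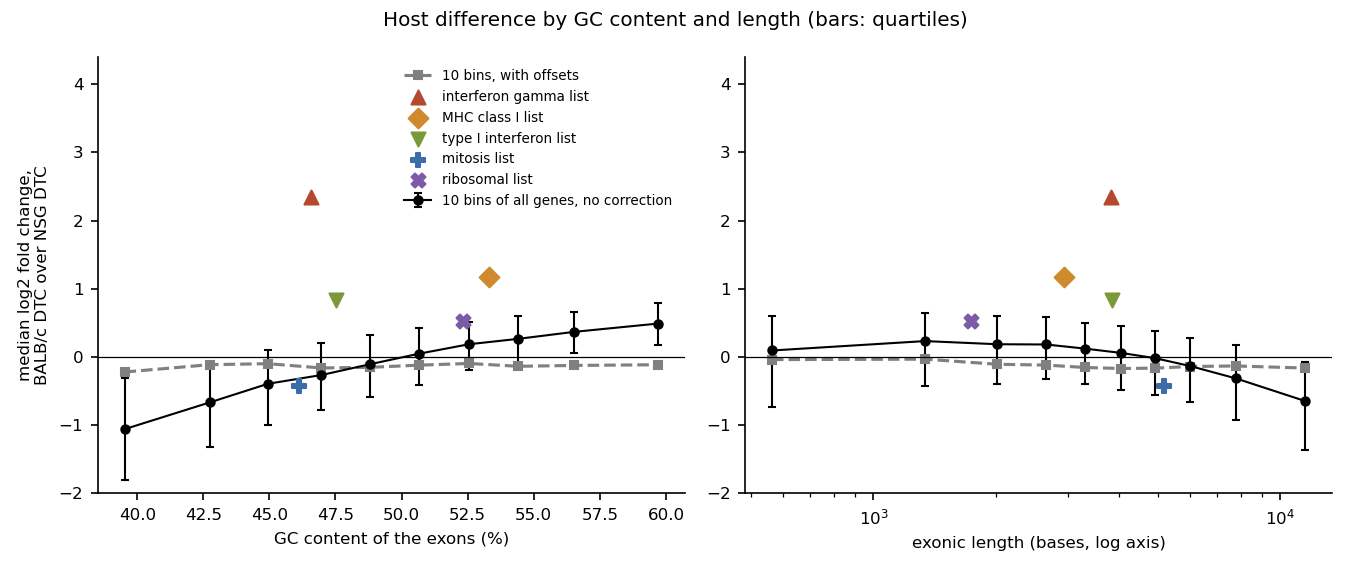
Median log2 fold change of BALB/c DTC over NSG DTC (vertical axes) in 10 equal bins of all genes by exonic GC content (left, percent) and exonic length (right, bases, log axis), without correction (black, bars are quartiles) and with offsets (grey), with 5 list medians drawn over them. The median runs between -1.06 and 0.49 over the GC bins, and the interferon gamma list lies at 2.35 and the mitosis list at -0.42.

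Mitosis genes, many of them long and low in GC content, were called lower in 18 of 37 cases and higher in none (median -0.42), and with the offsets 13 were lower and 2 higher (median -0.34). Mki67, the proliferation antigen, had 61.9, 22.4, 50.7, 31.0 and 5.17 CPM in BALB/c DTC, against 199, 262, 275, 245 and 253 CPM in NSG DTC (-2.85 ± 0.40, edgeR adjusted p = 3.5e-06, and -2.45 with the offsets). Cenpe (-3.13 ± 0.45), a kinetochore motor, and Aspm (-2.58 ± 0.37), a spindle pole protein, were lower too (-2.50 and -1.90 with the offsets). Cdc20, the activator of the anaphase-promoting complex, had 161 to 248 CPM in BALB/c DTC and 138 to 199 CPM in NSG DTC (0.31 ± 0.19, not called, and -0.23 with the offsets, but called at 0.48 with the lung marker covariate).

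Of the DNA replication genes 10 of 38 were called higher and 6 lower (median 0.19), against 17.1% and 21.7% of all genes. The helicase subunit Mcm5 had 492, 515, 597, 569 and 544 CPM in BALB/c DTC and 267 to 398 CPM in NSG DTC (0.74 ± 0.15), and the polymerase gene Pold1 was also higher (0.94 ± 0.14, and 0.34 with the offsets), whereas Rfc1, the large subunit of the clamp loader, was lower (-1.40 ± 0.27). Among G1 cyclins, CDK inhibitors and p53 targets 6 of 27 were higher and 7 lower, against the same shares of all genes. Ccnd3, cyclin D3, had 104 to 139 CPM in BALB/c DTC and 55.9 to 74.1 CPM in NSG DTC (0.86 ± 0.11). Cdkn1b, the CDK inhibitor p27, had 66.3 to 84.5 CPM in BALB/c DTC and 119 to 154 CPM in NSG DTC (-0.74 ± 0.10).

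Ribosomal and energy genes were slightly higher, with fewer calls under the offsets. Of 38 ribosomal protein genes 34 were called higher (median 0.54), against 11 higher and 1 lower with offsets (median 0.20). For nuclear-encoded oxidative phosphorylation genes it was 30 higher and 1 lower of 38 (median 0.50), against 15 and 1 (median 0.25), and for glycolysis 10 and none of 19 (median 0.41), against 3 and 1 (median 0.12). Rps3, of the small ribosomal subunit, had 1412 to 1876 CPM in BALB/c DTC and 837 to 1104 CPM in NSG DTC (0.75 ± 0.12). Gapdh (0.62 ± 0.15) and Cox4i1, a subunit of cytochrome c oxidase (0.69 ± 0.11), were called without the offsets only. Cholesterol and fatty acid synthesis had 12 of 30 higher and 5 lower, against 17.1% and 21.7% of all genes, and 5 and none with the offsets. Mvd of the mevalonate pathway stood at 1.24 ± 0.21 (0.58 with the offsets).

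Of the hypoxia genes few were called, 1 of 25 higher and 4 lower, against 17.1% and 21.7% of all genes. Hif1a, the oxygen-regulated factor, had 77.9, 49.9, 58.3, 49.98 and 15.8 CPM in BALB/c DTC and 137 to 206 CPM in NSG DTC (-1.63 ± 0.29, and -0.98 with the offsets). Plod2, a collagen lysyl hydroxylase, was also lower (-1.68 ± 0.29). Egln3, a prolyl hydroxylase, had 98.7 to 155 CPM in BALB/c DTC and 72.2 to 83.9 CPM in NSG DTC (0.84 ± 0.18), and Hk2, a hexokinase counted in the glycolysis list, stood at 0.69 ± 0.15.

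Epithelial and keratin genes were called higher in 15 of 30 cases and lower in 3 (median 0.57), but in 3 and 5 with the offsets (median 0.11). The luminal keratin gene Krt7 had 573 to 813 CPM in BALB/c DTC and 270 to 573 CPM in NSG DTC (0.60 ± 0.14). Cldn7, a tight junction claudin, was higher (0.78 ± 0.15) only without the offsets, and Dsp, the desmosome linker desmoplakin, was lower (-1.66 ± 0.31). Epcam had 306 to 421 CPM in BALB/c DTC and 325 to 487 CPM in NSG DTC (-0.18 ± 0.23, not called, at -0.58 and called with the offsets, at 0.02 and not called with the covariate). Lung epithelium markers were also called higher, and their part in this group was not tested beyond the alternatives run. In BALB/c DTC the epithelial and keratin genes summed to 9714, 9797, 11265, 12692 and 12570 CPM. The lowest sums were thus in replicates 1 and 2, which had the highest lung marker sums. With the covariate 16 members were higher and 3 lower (median 0.69), and without BALB/c replicates 1 and 2 it was 17 and 3 (median 0.69).

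Of the mesenchymal genes none of 33 was called higher and 8 were lower (median -0.17, and 12 lower with offsets). Of all genes 17.1% were called higher and 21.7% lower. Fn1, the matrix protein fibronectin, had 3336, 5501, 5459, 3262 and 6669 CPM in BALB/c DTC, against 11756, 14739, 10608, 11023 and 9212 CPM in NSG DTC (-1.24 ± 0.18, edgeR adjusted p = 2.3e-06). Spp1, osteopontin (-1.05 ± 0.19), and Mmp14, a membrane-bound collagenase (-0.51 ± 0.11), were lower too, while Vim had 3106 to 4990 CPM in BALB/c DTC and 4527 to 5950 CPM in NSG DTC (-0.38 ± 0.20, not called, but called at -0.65 on log2(TPM + 1)). Among YAP targets 1 of 20 was higher and 6 lower, with Cyr61, a matricellular protein, at -0.68 ± 0.22 (-0.56 and not called without BALB/c replicate 4). Fibroblast, pericyte and smooth muscle markers summed to 764 to 1130 CPM in BALB/c DTC and 1233 to 1597 CPM in NSG DTC. Of the 15 tested, however, 11 had a positive log2 fold change (median 1.37), with 1 called higher and 2 lower. The part of these markers in the falls of mesenchymal genes was not tested.

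The stress and clock lists differed in how many members were called, where 17.1% of all genes were higher and 21.7% lower. Immediate early genes had 2 of 27 higher and 2 lower, and 1 and 6 with the offsets, among them the AP-1 subunit Jund (1.04 ± 0.19, and 0.37 with the offsets) and the nuclear receptor gene Nr4a2 (-2.03 ± 0.37). Heat shock and unfolded protein genes had 8 of 22 higher and 4 lower, and 9 and 2 with the offsets. The integrated stress list had 9 of 22 higher and 2 lower, and 3 and 1 with the offsets. Antioxidant genes had 13 of 26 higher and 3 lower, and 5 and 3 with the offsets. Sod2, mitochondrial superoxide dismutase, had 60.8 to 109 CPM in BALB/c DTC and 49.8 to 56.4 CPM in NSG DTC (0.72 ± 0.13, and 1.71 with the offsets), and Slc7a11, the cystine transporter, was lower (-1.87 ± 0.35), though not called with the offsets (-0.74). In the clock list 1 of 17 was higher and 6 lower, including Clock itself (-2.65 ± 0.40, and -1.64 with the offsets) and Nr1d2, a repressor of the clock (-2.01 ± 0.24).

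**Figure D4:**
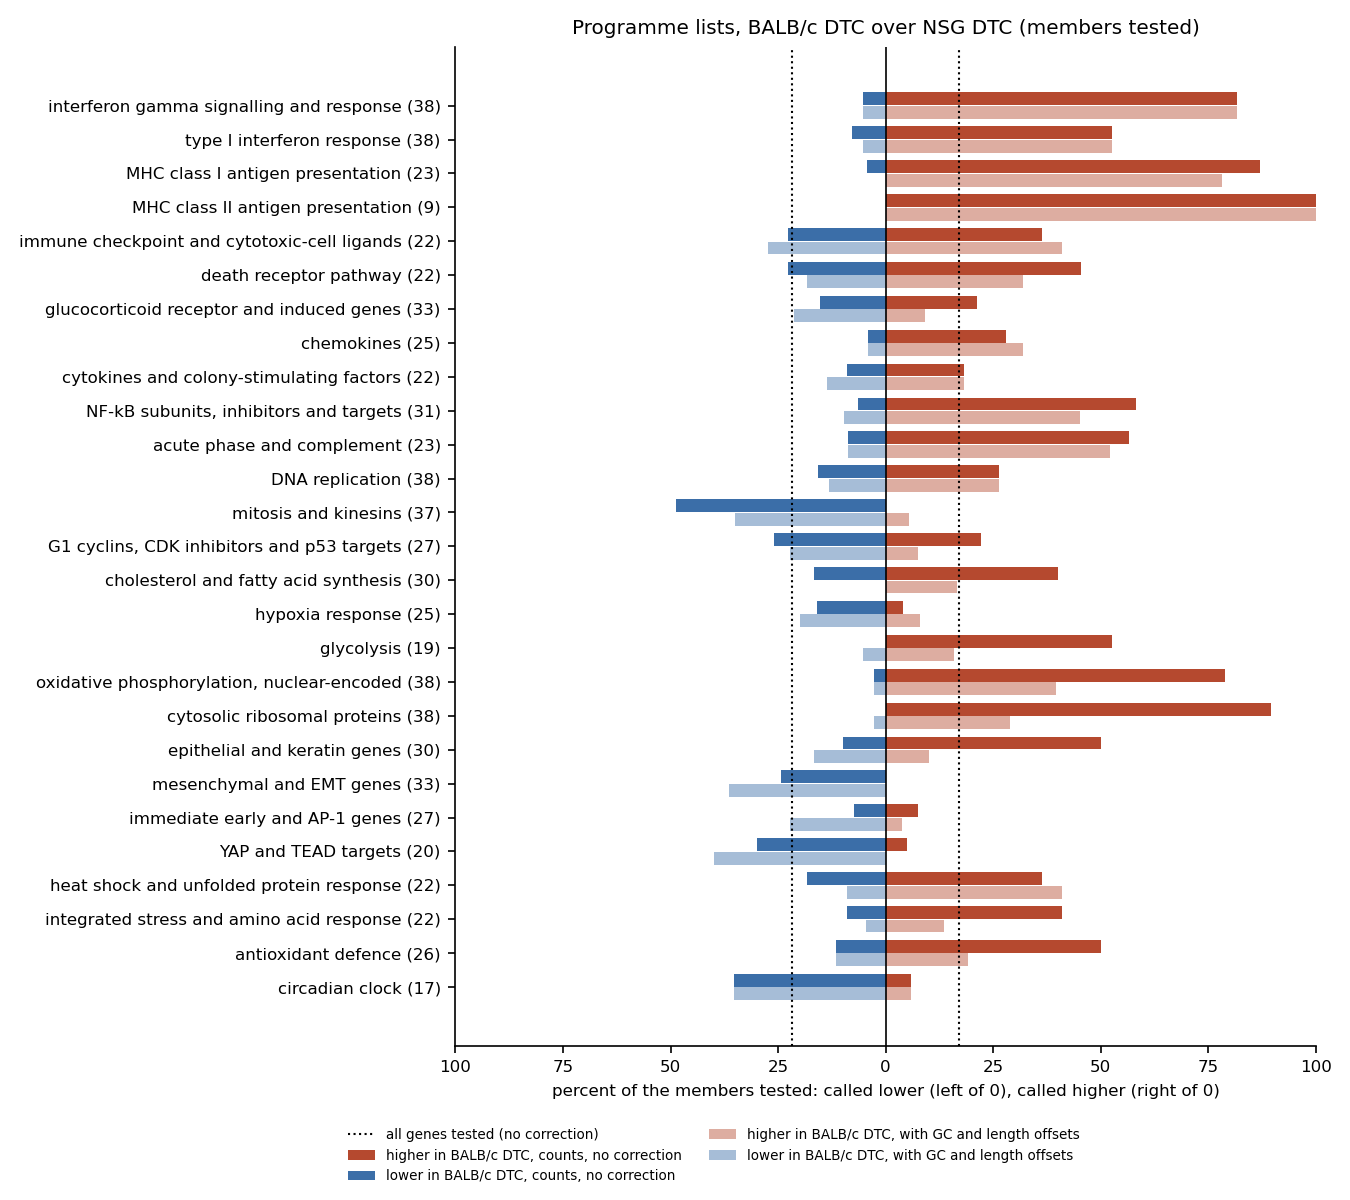
Percent of tested members of 27 programme lists called higher (right of 0, red) or lower (left of 0, blue) in BALB/c DTC than in NSG DTC, without correction (dark) and with GC and length offsets (pale), with the number tested in brackets. Dotted lines give all genes (17.1% higher, 21.7% lower), and with the offsets 9 of 9 class II, 18 of 23 class I, 31 of 38 interferon gamma and 20 of 38 type I interferon genes are called higher, against 9, 20, 31 and 20 without, while the ribosomal list has 11 of 38 with them and 34 without.

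The host difference at day 7 was set against the difference between the same hosts in tumours and in macro-mets (lung, late). Tumours were taken at days 21 and 22 in BALB/c and day 10 in NSG mice after 200000 cells in the mammary fat pad, and macro-mets at days 21 and 23 in BALB/c and days 19 and 20 in NSG mice, so day cannot be told apart from host there. In tumours 11.0% of genes were called higher and 12.6% lower in BALB/c mice, and in macro-mets 1.88% and 0.760%. The genes called higher in both DTC and tumours numbered 579 (19.0% of those in DTC, 29.6% of those in tumours), and 219 were shared with macro-mets (7.19% and 65.4%). Those called lower in both numbered 593 with tumours (15.4% and 26.6%) and 57 with macro-mets (1.48% and 42.2%). Genes called in opposite directions numbered 947 between DTC and tumours and 23 between DTC and macro-mets. By interaction terms of the edgeR fit, the log2 difference between hosts was higher in DTC than in tumours for 15.0% of genes and lower for 18.4%, and against macro-mets it was higher for 11.6% and lower for 16.6%.

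The interferon gamma and class II lists differed between hosts at every stage. Of the 38 interferon gamma genes 31 were called higher in DTC, 31 in tumours and 29 in macro-mets, and of the 9 class II genes all were at each stage. Cd74 averaged 1674 ± 394 CPM in BALB/c tumours and 10.5 ± 3.54 CPM in NSG tumours (SD, n = 5 each), and the log2 difference between hosts was smaller in DTC by -1.45 ± 0.44 (edgeR adjusted p = 0.012). Likewise it was smaller in DTC than in tumours for H2-Eb1 (-1.83 ± 0.64), H2-DMa (-1.23 ± 0.35), Nos2 (-2.80 ± 0.70) and Iigp1 (-3.47 ± 0.70), of which the first 3 were not called with voom (-2.16, -1.37 and -2.87), nor H2-Eb1 without NSG replicate 1 (-1.57) or 3 (-1.77). Nos2 was at 1.01 ± 0.253 CPM in NSG tumours (SD, n = 5). Iigp1 averaged 0.982 ± 0.232 CPM in NSG tumours (SD, n = 5), below its 2.68 to 4.19 CPM in NSG DTC. Type I interferon genes showed 14 of 38 interactions lower and none higher against tumours, and 10 lower and 1 higher against macro-mets. Of all genes 18.4% were lower and 15.0% higher against tumours, and 16.6% and 11.6% against macro-mets.

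Class I genes had 10 of 23 interactions higher and 3 lower against macro-mets, where 11.6% and 16.6% of all genes did. Psmb9 averaged 217 ± 14.8 CPM in BALB/c macro-mets and 79.6 ± 9.10 CPM in NSG macro-mets (SD, n = 5 each), so that the log2 difference was larger in DTC by 1.26 ± 0.25 (edgeR adjusted p = 0.00038), and Tap1 was alike (1.26 ± 0.28, but 0.77 and not called with the offsets). Ido1 (2.33), C1s1 (1.98) and Irf8 (1.33) also had larger differences in DTC than in macro-mets, but Ido1 was not called with voom (2.40) or without BALB/c replicate 4 (1.90), C1s1 not with voom (1.75), and C1s1 (1.25) and Irf8 (0.87) not on log2(TPM + 1). The NF-kB list had 17 of 31 interactions higher and none lower against tumours, where 15.0% and 18.4% of all genes did. In tumours themselves 6 members were called higher and 10 lower in BALB/c mice (median -0.20). Nfkb2 (1.32) and Icam1 (1.40) were among the 17, and Cxcl10 (2.18) and Wnt6 (2.28) were also higher in interaction against tumours. With the offsets Icam1 (0.75) and Wnt6 (1.496) were not called there. The log2 difference of Fas did not differ from that in tumours (-0.49 ± 0.31, edgeR adjusted p = 0.24) or macro-mets (-0.35 ± 0.31, edgeR adjusted p = 0.45) beyond the threshold.

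Of the 33 glucocorticoid genes 11 interactions were higher and 4 lower against tumours, where 15.0% and 18.4% of all genes did. Against macro-mets 7 were higher and 3 lower, where 11.6% and 16.6% of all genes did. Among the named genes, interactions are given here for Nr3c1, Fkbp5 and Per1. Nr3c1 averaged 24.6 ± 3.59 CPM in BALB/c and 20.0 ± 1.93 CPM in NSG tumours, and 17.1 ± 5.44 CPM in BALB/c and 14.9 ± 2.68 CPM in NSG macro-mets (SD, n = 5 each), so the NSG DTC level of 41.0 to 60.1 CPM stood above those of all 4 groups. Its interactions were -1.93 ± 0.30 against tumours and -1.82 ± 0.30 against macro-mets. Fkbp5 was higher in interaction (0.66 and 0.64), and its log2 difference between hosts was -0.45 in tumours and -0.43 in macro-mets (edgeR adjusted p = 0.0076 and 0.046). Per1 was higher in interaction too (1.24 and 1.39), with -0.58 and -0.74 at those stages, neither called (edgeR adjusted p = 0.059 and 0.071). With the offsets the Per1 interactions were not called (0.49 and 0.71), and on log2(TPM + 1) those of Fkbp5 were not (0.42 and 0.38).

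Growth genes also moved by stage. Mki67 averaged 18.9 ± 5.75 CPM in BALB/c and 16.2 ± 1.77 CPM in NSG tumours and 10.9 ± 5.82 CPM in BALB/c and 9.74 ± 2.70 CPM in NSG macro-mets (SD, n = 5 each), against 199 to 275 CPM in NSG DTC. Its interactions were -3.08 and -3.02. Among all genes 15.0% of interactions were higher and 18.4% lower against tumours, and 11.6% and 16.6% against macro-mets. Over the mitosis list 19 of 37 interactions were higher and 6 lower against tumours (median 0.62), where 26 members were called lower in BALB/c mice. Against macro-mets none was higher and 18 were lower. DNA replication genes had 32 of 38 interactions higher and 2 lower against tumours, where 32 were called lower in BALB/c mice, at a later day than NSG tumours. Immediate early genes had 18 of 27 interactions higher and none lower against tumours, where 22 were called lower in BALB/c mice and none higher (median -1.33). Csrnp1, a nuclear factor induced by growth signals and not in that list, was higher in interaction too (2.59). Its host difference in DTC was not called (0.70, edgeR adjusted p = 0.12). Tmprss11e (-3.53 and -3.47) and Dio2, the enzyme that activates thyroid hormone (-4.85 and -2.66), had lower interactions against both stages.

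**Figure D5:**
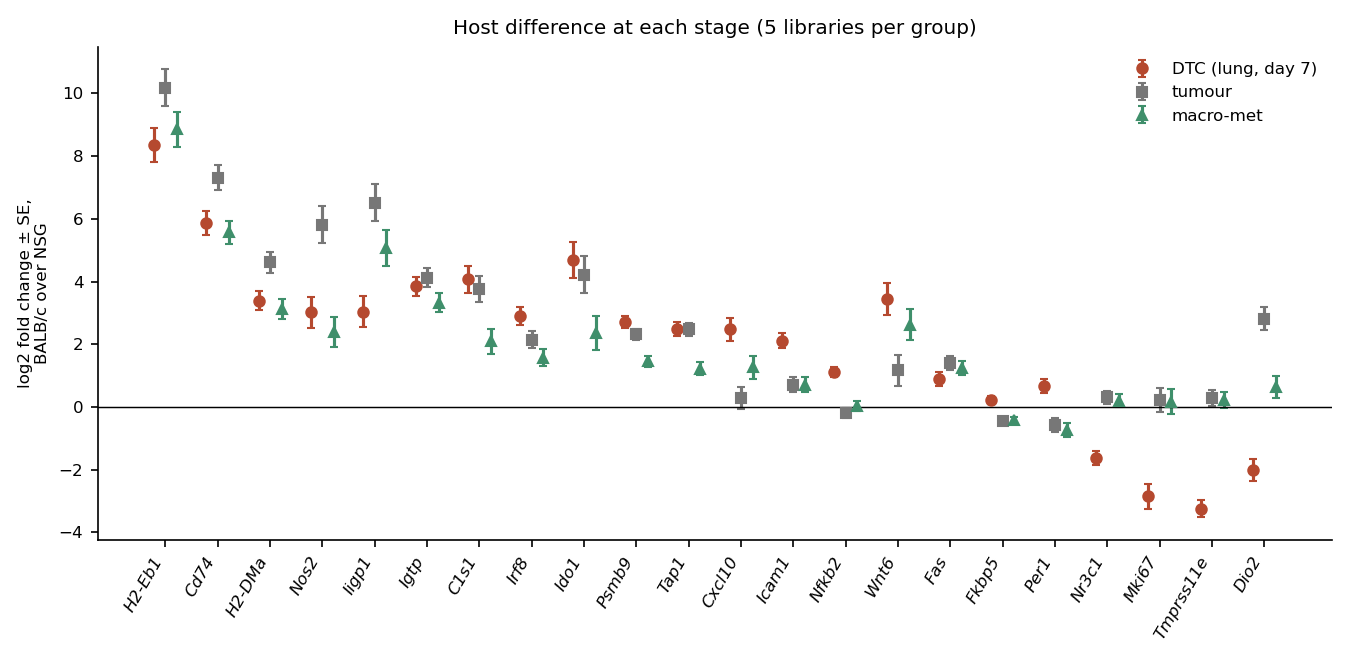
Log2 fold change of BALB/c over NSG ± SE (vertical axis, 5 libraries per group) for 22 genes in DTC (red), tumours (grey) and macro-mets (green). The class II genes are far above 0 at each stage, Psmb9 and Tap1 are higher in DTC than in macro-mets, and Nr3c1, Mki67 and Tmprss11e are below 0 in DTC, at -1.63, -2.85 and -3.24, where the other 2 stages lie close to 0.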

How the data were processed

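The authors deposited 2 tables over the same libraries, raw gene counts under Ensembl IDs and TPM values. Trimmomatic 0.36 and STAR 2.5.2b with GRCm38/mm10 are named in the submitters' processing notes, and the counting tool, strand setting and lengths behind the deposited TPM are not given in the sources used here. The count table held 49315 genes, 49056 of them with an ID in GENCODE M21, which gave GC content and exonic length. Cells were sorted and RNA was extracted with the miRNeasy Micro kit, per the labels' protocols.

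Genes were filtered with filterByExpr by group, which left 17774 genes with 99.969% of counts. Libraries were scaled by TMM and fitted by edgeR 4.0.16 (R 4.3.3, robust quasi-likelihood test) over all 30 libraries with 1 mean for each of the 6 groups, which left 24 residual degrees of freedom (the biological coefficient of variation had a median of 0.269). The 3 tests were BALB/c DTC over NSG DTC and the interactions of that difference with tumours and with macro-mets, and calls were made below 0.05 after Benjamini-Hochberg adjustment of p over all genes. Offsets for GC content and length were spline trends per library (5 degrees of freedom). Alternatives used limma 3.58.1 and DESeq2 1.42.0. No molecular identifiers are described, so counted reads may repeat a molecule, and the spread between libraries sets the precision.

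Members and lists were chosen with earlier results of these data known. The 27 programme lists and 14 marker lists held 875 names, of which 870 were found and 818 tested. Named genes were Fas, Nr3c1, Fkbp5, Tsc22d3 and Per1, the 12 largest rises and 12 largest falls (called, mean log2 CPM 3 or more, no overlap of the groups, no place in a marker list of other cells and a symbol that is no clone name), up to 6 called members and 3 uncalled of each list, up to 4 genes in each direction of each interaction, the 3 highest markers of each list, and the smallest p in each direction. Those printed were taken from the 301 genes this allowed after their values were seen. The fits were tested on simulated data with known changes. Those data held no trend by GC content or length, so they cannot show how the fits behave under such trends.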

Additional observations from a re-analysis of the deposited data

Results flagged for a closer look

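Of 234 groups of 5 libraries tested for a library far from the others, 15 had one, and chance flags about 1 in 20. Tsc22d3 in BALB/c DTC replicate 5 (163 CPM) and Nfkbia in the same library (710 CPM) lay far above the rest of their group, as did Lcn2 in BALB/c DTC replicate 4 (973 CPM) and Il1b in BALB/c DTC replicate 1 (26.0 CPM). Among NSG DTC, replicate 3 was high for H2-DMb1 (0.259 CPM), Erap1 (125 CPM), Xiap (122 CPM) and Hif1a (206 CPM), and low for Jund (294 CPM). The same library was low for summed platelet (3.58 CPM) and skeletal muscle (20.6 CPM) markers and high for adipocyte markers (1.87 CPM). NSG DTC replicate 1 was high for Cxcl10 (20.0 CPM), and replicate 5 was low for Il1b (0.625 CPM) and high for mesothelium markers (135 CPM).

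The log2 difference between hosts differed between DTC and tumours in 5944 genes, and between DTC and macro-mets in 5002, by the interaction terms of the edgeR fit. Against tumours it was lower in DTC for Cd74 (-1.45), H2-Eb1 (-1.83), H2-DMa (-1.23), Nos2 (-2.80), Iigp1 (-3.47), Nr3c1 (-1.93), Dio2 (-4.85), Mki67 (-3.08) and Tmprss11e (-3.53). It was higher for Cxcl10 (2.18), Icam1 (1.40), Nfkb2 (1.32), Per1 (1.24), Fkbp5 (0.66), Wnt6 (2.28) and Csrnp1 (2.59). Against macro-mets it was lower for Iigp1 (-2.01), Nr3c1 (-1.82), Dio2 (-2.66), Mki67 (-3.02) and Tmprss11e (-3.47). It was higher for Psmb9 (1.26), Tap1 (1.26), Icam1 (1.41), Nfkb2 (1.09), C1s1 (1.98), Irf8 (1.33), Ido1 (2.33), Per1 (1.39), Fkbp5 (0.64) and Csrnp1 (1.58).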

How the results depend on the processing

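Calls between the hosts numbered 3048 higher and 3851 lower, and the calls lower stayed within 1.5 times of that number under every alternative run. With GC and length offsets 1756 were higher, on log2(TPM + 1) 1598 and on log2(TPM + 0.1) 1568. The median log2 fold change over all genes was -0.13, -0.15 and -0.26 there, against -0.01. Interactions that were higher against tumours fell to 1693, 1396 and 1359 under the same 3 settings, against 2670, and those against macro-mets to 929, 760 and 707, against 2060, with 3204 interactions called in all with offsets, against 5002. Leaving out 1 library at a time gave 2506 (without BALB/c DTC replicate 5) to 3108 calls higher and 3488 to 3880 lower. Of the 103 genes with a printed log2 fold change, 81 kept direction and side of the threshold under all 23 settings. Direction reversed for Erap1 (0.32), Tnfrsf1a (-0.0073) and Cdc20 (-0.23) with the offsets, for Epcam (0.022) with the covariate, for Fkbp5 (-0.036 for both) and Ifngr1 (-0.034 and -0.035) on the TPM scales, and for Tsc22d3 with the covariate (0.10), without BALB/c DTC replicates 1 and 2 (0.086), with the covariate on the 10 DTC libraries alone (0.14) and without NSG DTC replicate 3 (values without 1 library lay between -0.34 and 0.0094). Calls were lost with the offsets by Per1 (0.099), Cflar (-0.26), Tslp (-0.13), Gapdh (0.28), Cox4i1 (0.069), Cldn7 (0.18) and Slc7a11 (-0.74). Per1 also lost it on the TPM scales (0.41 and 0.42), without BALB/c DTC replicate 5 (0.57) and without NSG DTC replicate 1 (0.62). Cyr61 lost it with no filter (-0.63), with the covariate (-0.59) and without BALB/c DTC replicate 4 (-0.56), Il1b with the covariate (0.90) and without BALB/c DTC replicates 1 and 2 (1.21), and Mmp14 with the covariate on the 10 DTC libraries alone (-0.33). Calls as lower were gained by Erap1 under 7 settings, Pdia3 under 4, Vim under 2, and Dusp1 (-0.83) and Epcam (-0.58) with the offsets. Calls as higher were gained by Cdc20 and Nfkbia under 3 settings each, Fkbp5 and Csrnp1 under 2 each, and Ifngr1 without NSG DTC replicate 3 (0.34). With the offsets 30 of the 103 genes moved by over 1.5 times in fold. The cause of these changes was not tested. The 31 interactions named kept direction throughout, but 32 of their 651 values lost the call, 9 with the offsets, 6 with voom, 6 on log2(TPM + 1), 4 on log2(TPM + 0.1), 3 with no filter and 4 without 1 library. Against macro-mets these included Iigp1 (-1.19), Icam1 (0.84), Nfkb2 (0.36) and Csrnp1 (0.87) with the offsets, and Iigp1 without NSG DTC replicate 1 (-1.94). Leaving out BALB/c DTC replicates 1 and 2 and the covariate on the 10 DTC libraries alone were chosen after seeing the data. No paired analysis was possible because the title numbers differ between the hosts and so lie wholly within host. Of the lists' genes, those near 0 counts in a host, among them class II genes in NSG DTC, have fold changes that depend on the prior count. The list of B and plasma cells had no tested gene, and so no median, with a CPM minimum of 1 or with the 10 DTC libraries alone.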
